A study of Mus musculus with 54 samples.

Results

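Fads1, Fads2, Elovl2, Elovl5 and Elovl1 encode desaturases and elongases of the route to long polyunsaturated fatty acids. Their transcripts were followed by RNA-seq in 54 mouse livers. The 5 genes were chosen by symbol, for what their products are known to do, out of 18079 genes in the table, and all 5 passed the filter on low values (a mean of at least 0.5 FPKM). The series asks how autonomous the circadian clock of the liver is. Liver-RE mice, whose genotype label is Liver-RE BMAL1-stop-FL, lacked BMAL1 except for its reconstitution in liver. KO mice carried the BMAL1 knockout, and WT mice were wild type. Arntl is the gene of BMAL1, which with CLOCK drives the circadian oscillator. All mice were 8-12 weeks old females on a C57BL/6J background, fed normal chow freely in 12 h of light and 12 h of dark. At each of ZT0, 4, 8, 12, 16 and 20 (hours from lights on), 3 livers were taken per genotype, which gives 18 libraries for Liver-RE, 18 for KO and 18 for WT. The sources used here do not give what drives the reconstitution, which liver cells it reaches or which part of Arntl the knockout removes.

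Dietary linoleic and alpha-linolenic acid enter the route through Fads2, which adds the first new double bond. Elovl5 lengthens the product, and Fads1 adds the next double bond, which gives arachidonic and eicosapentaenoic acid. Elovl2 then lengthens these chains on the way to docosahexaenoic acid, whose last step is a chain shortening in peroxisomes. Elovl1 works mainly on very long saturated and monounsaturated chains for sphingolipids. In liver, Fads1, Fads2 and Elovl5 are known targets of the lipid regulators SREBP1 and PPAR-alpha.

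Fads1 and Fads2 are neighbours on mouse chromosome 19 (GENCODE M21, GRCm38, the assembly that mm10 names). Fads1 spans 10182888 to 10196877 on the plus strand and Fads2 spans 10062765 to 10101746 on the minus strand, with 81141 bp and 0 protein-coding genes between them. Elovl2 lies on chromosome 13 (41182381 to 41220405, minus strand), Elovl5 on chromosome 9 (77917364 to 77984519, plus strand) and Elovl1 on chromosome 4 (118428093 to 118432953, plus strand). Elovl1 overlaps Cdc20 on the opposite strand, and the sources used here do not say whether counting was by strand, so reads of Cdc20 in the Elovl1 value cannot be told apart. Fads1 holds the miRNA gene Mir6993. RefSeq promoter windows of GRCm38.p6 matched 4 of the 5 genes (all but Fads1). The windows of the elongase with the largest swing over the day in WT (Elovl5) and of its neighbour in the route with a small one (Elovl2) are shown. Each holds 250 bases ending at the transcription start, 5′ to 3′ on the gene's strand, with CACGTG E-boxes and CCAAT boxes (or their reverse complement ATTGG) in capitals.
Elovl5, chr9:77917115-77917364, plus strand: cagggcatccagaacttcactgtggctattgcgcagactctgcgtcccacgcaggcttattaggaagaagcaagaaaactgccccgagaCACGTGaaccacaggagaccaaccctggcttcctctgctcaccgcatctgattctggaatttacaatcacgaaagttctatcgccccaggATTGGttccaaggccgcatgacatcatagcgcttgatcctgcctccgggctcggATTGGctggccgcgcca
Elovl2, chr13:41220404-41220653, minus strand: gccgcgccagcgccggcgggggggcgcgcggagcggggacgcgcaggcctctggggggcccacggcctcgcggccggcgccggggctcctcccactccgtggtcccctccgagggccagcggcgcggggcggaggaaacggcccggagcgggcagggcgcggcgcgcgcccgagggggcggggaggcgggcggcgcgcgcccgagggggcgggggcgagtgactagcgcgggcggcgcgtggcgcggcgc
In the Elovl5 window the E-box starts 161 bases upstream of the start and the CCAAT boxes start 71 and 17 bases upstream. The Elovl2 window holds neither, and its GC content was 87.2%, against 55.6% for Elovl5 and a median of 52.4% over 32851 windows. Of all windows, 6.02% held CACGTG and 33.9% held CCAAT, read on both strands. A D-box (TTATGNAA, in 3.07% of all windows) and a sterol response element (TCACNCCAC, in 1.05%) were in neither of these windows. The window of Fads2, the other of the 5 genes called rhythmic in WT, held none of these 4 motifs. These matches describe letters only; no binding was measured here.

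Depth, estimated from the steps that 1 read makes in low values, was 25.5 to 42.0 M reads in Liver-RE, 24.97 to 36.5 in KO and 26.5 to 38.0 in WT. A liver here is 1 mouse as the labels give it, and the p-values measure the spread between these samples. In the KO libraries Arntl was 6.26 to 8.74 FPKM, a value for the whole gene that does not check the label. Clock genes of 2 libraries stood out of phase with their group. WT ZT8 replicate 2 had 10.6 FPKM of Arntl, against 0.414 and 0.563 in the other WT livers of that time, and Liver-RE ZT20 replicate 1 had 10.8 FPKM of Nr1d1, a repressor of Arntl, against 1.12 and 1.64. Without these 2 libraries, the same number of the 5 genes passed each test of the mean level and of rhythm in every comparison, and results at single times that rest on them are given both ways. Arntl also spread from 1.91 to 10.6 FPKM within the Liver-RE ZT0 group. The livers of that group were left out only singly, so the check without the 2 libraries does not cover them. Hepatocyte markers were high in every library. In bulk liver, fewer cells of a type and less RNA per cell cannot be told apart.

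All but Elovl1 were abundant liver transcripts. Ranked by mean FPKM, a value scaled by gene length, Elovl5 was 200th (219 FPKM), Fads2 236th (183 FPKM), Elovl2 355th (128 FPKM), Fads1 356th (128 FPKM) and Elovl1 3194th (11.0 FPKM) among all genes. Elovl1 was the lowest of the 5 in all 54 libraries. The order of the others depended on genotype. Fads2 or Elovl5 was first in each of the 18 Liver-RE livers, Elovl5 in each of the 18 KO livers, and Fads2 or Elovl5 in each of the 18 WT livers. In 11 KO livers the order was Elovl5, Elovl2, Fads2, Fads1, an order found in 1 WT liver and in none of the Liver-RE livers. Elovl2 and Fads1 had nearly the same mean over all libraries and changed places between genotypes.

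**Figure D1:**
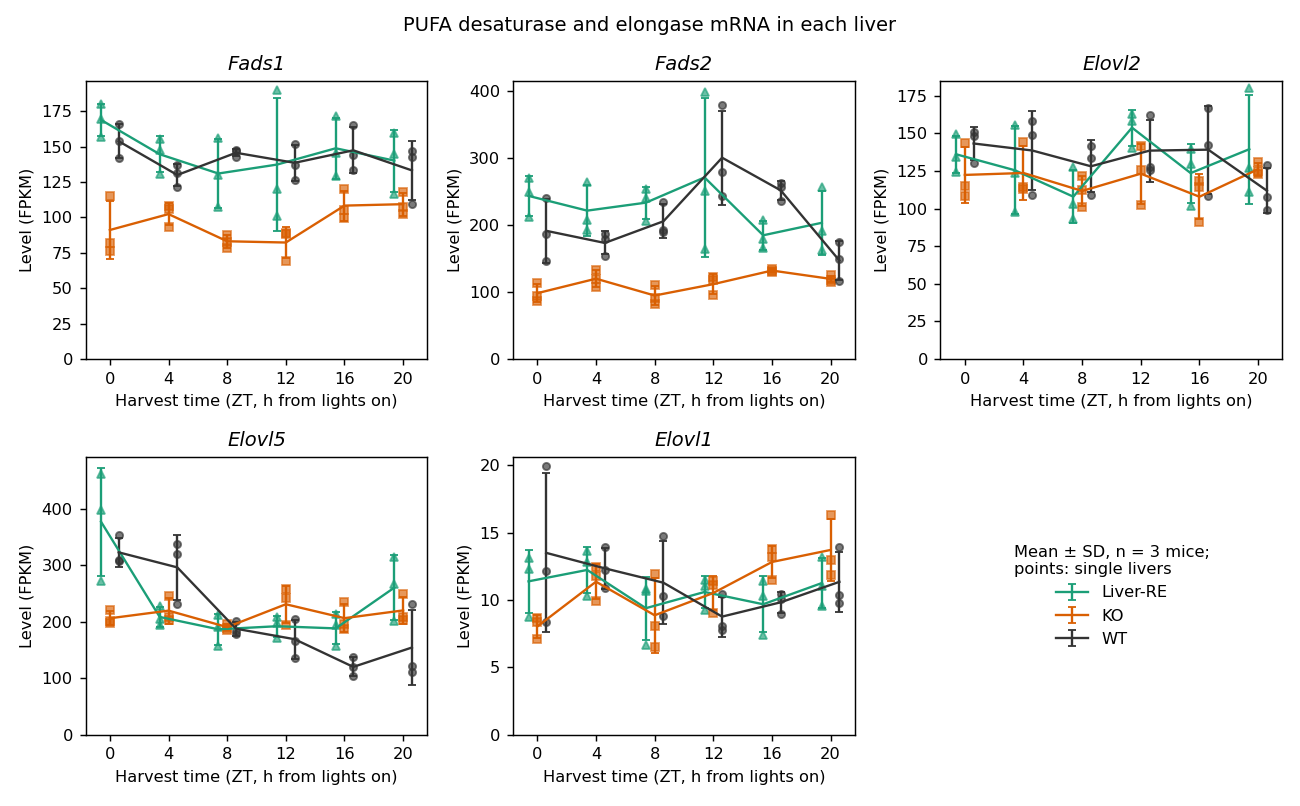
FPKM of each gene against harvest time, with 1 point per liver and lines through the mean ± SD of 3 livers per genotype and time; the vertical axes start at 0. Fads2 of all 18 Liver-RE livers lies above all 18 KO livers, a separation that was counted for the 5 genes only. Elovl5 spans 157 to 460.4 FPKM in Liver-RE livers, 186 to 257 in KO livers and 104 to 353 in WT livers. Its difference in rhythm between Liver-RE and KO did not pass (limma adjusted p = 0.242).

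The first comparison is the level over the day. In KO livers both desaturases were lower than in WT livers, and in Liver-RE livers both were higher than in KO livers, while none of the 3 elongases passed the test. Fads2, the entry step, had 162, 210 and 398 FPKM (lowest, median and highest) in Liver-RE livers, 82.0, 116 and 134 FPKM in KO livers, and 117, 191 and 378 FPKM in WT livers. Its Liver-RE and KO livers did not overlap at all, and 17 of the 18 WT livers lay above every KO liver. On the log2(FPKM + 1) scale the KO minus WT difference was -0.86 ± 0.094 (SE, 18 livers each), a fold of 0.550, with limma adjusted p = 2.16e-10. The Liver-RE minus KO difference of Fads2 was 0.98 ± 0.094, a fold of 1.97, with limma adjusted p = 5.46e-12. Counts of livers without overlap, here and below, were made for the 5 genes only. How many of all genes were separated in this way was not counted.

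Fads1, the second desaturase of the route, moved in the same directions by smaller amounts. It had 101, 147 and 190.3 FPKM (lowest, median, highest) in Liver-RE livers, 69.3, 96.6 and 120.1 FPKM in KO livers, and 109.6, 143 and 166 FPKM in WT livers. Of the 18 KO livers, 15 lay below every WT liver, and 15 of the 18 Liver-RE livers lay above every KO liver. The KO minus WT difference was -0.56 ± 0.070, a fold of 0.677 (limma adjusted p = 7.42e-09), and the Liver-RE minus KO difference was 0.59 ± 0.070, a fold of 1.501 (limma adjusted p = 2.75e-09). The ratio of Fads2 to Fads1 had medians of 1.496 in Liver-RE livers, 1.15 in KO livers and 1.36 in WT livers.

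In all, 2 of the 5 genes were called lower (limma, Benjamini-Hochberg adjusted p under 0.05) in KO than in WT, where 13.5% of the 11759 genes tested were called lower, 16.5% higher and 30.0% in all. Against KO, 2 of the 5 were called higher in Liver-RE, where 7.42% of all genes were called higher, 26.7% lower and 34.1% in all. The split over all genes depended on scaling: Liver-RE against KO had 873 genes higher and 3134 lower as deposited, 1457 and 1643 after quantile normalization, and 1251 and 1635 when libraries were rescaled without the 20 highest genes. Under 10 settings, these included, the Fads2 difference stayed between -0.89 and -0.86 for KO minus WT and between 0.98 and 1.05 for Liver-RE minus KO, and that of Fads1 between -0.59 and -0.56 and between 0.59 and 0.66.

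Between Liver-RE and WT livers, the level of none of the 5 genes passed the limma test. The Liver-RE minus WT difference was 0.11 for Fads2 (95% interval -0.07 to 0.30, limma adjusted p = 0.457) and 0.02 for Fads1 (interval -0.12 to 0.16, limma adjusted p = 0.863). For Elovl5 it was 0.22 (interval 0.03 to 0.41), with limma adjusted p = 0.127, and Elovl5 alone of the 5 genes was under 0.05 before adjustment. Of all genes, 7.06% were called between Liver-RE and WT, 1.18% higher and 5.88% lower. Here too the split moved, with 139 genes higher and 691 lower as deposited, 247 and 266 after quantile normalization, and 187 and 292 after rescaling. The intervals of Fads1 and Fads2 against WT leave room for differences of the sizes given, and a missed threshold does not show equal levels.

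Elovl2, which makes the longest chains of the route, passed the test in no comparison. It had 93.0, 128 and 180.3 FPKM (lowest, median, highest) in Liver-RE livers, 90.9, 117 and 144 FPKM in KO livers, and 99.3, 132 and 167 FPKM in WT livers, and the ranges overlapped widely. The KO minus WT difference was -0.15 ± 0.078 (limma adjusted p = 0.131) and Liver-RE minus KO was 0.12 ± 0.078 (limma adjusted p = 0.220). Liver-RE against KO passed under both other scalings, with 0.20 and limma adjusted p = 0.0424 after quantile normalization and 0.20 and 0.0454 after rescaling.

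The daily mean of Elovl5 did not pass the test either, and single livers spread widely. Its lowest, median and highest values were 157, 206 and 460.4 FPKM in Liver-RE livers, 186, 204 and 257 FPKM in KO livers, and 104, 192 and 353 FPKM in WT livers. The KO minus WT difference was 0.13 ± 0.093 (limma adjusted p = 0.303), and Liver-RE minus KO was 0.09 ± 0.093 (limma adjusted p = 0.466). Of the 18 WT livers, 5 lay above every KO liver and 9 below every KO liver. Elovl1, at 6.69, 10.9 and 13.6 FPKM in Liver-RE, 6.54, 11.5 and 16.3 FPKM in KO and 7.75, 10.4 and 20.0 FPKM in WT livers, had differences of -0.03 ± 0.091 for KO minus WT (limma adjusted p = 0.823) and -0.00 ± 0.091 for Liver-RE minus KO (limma adjusted p = 0.981). Its highest WT value came from 1 liver, ZT0 replicate 2, next to 8.39 and 12.2 FPKM in the other WT livers of that time.

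**Figure D2:**
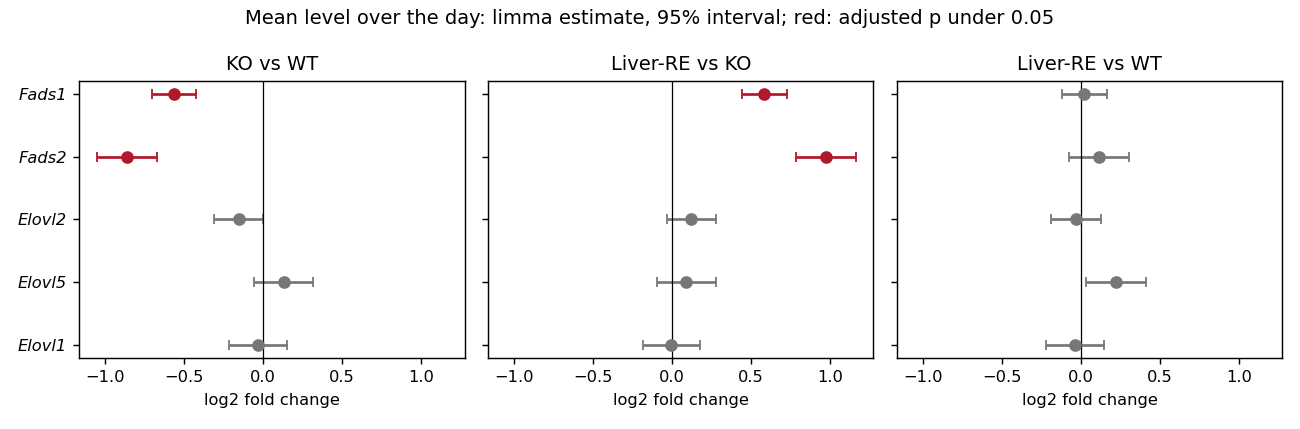
Difference in mean log2(FPKM + 1) over the day for each gene, with its 95% interval, in the 3 comparisons (18 livers per genotype); red marks a limma adjusted p under 0.05. The red points are Fads1 and Fads2, at -0.56 and -0.86 for KO vs WT and at 0.59 and 0.98 for Liver-RE vs KO.

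Other measures moved with these genotypes. Of 10 Kupffer cell markers, 9 were called lower in KO than in WT and 5 lower in Liver-RE than in WT, with 0 called between Liver-RE and KO; their summed level was 181 to 437 FPKM in Liver-RE, 179 to 396 in KO and 297 to 422 in WT. Of 10 hepatocyte markers, 3 were called lower in KO than in WT, and 1 was higher and 1 lower in Liver-RE than in KO. Of all genes, 30.0% were called between KO and WT, 34.1% between Liver-RE and KO and 7.06% between Liver-RE and WT. The median KO minus WT difference of the hepatocyte markers was 0.007. Their sum was 31707 to 65841 FPKM in Liver-RE, 21992 to 40406 in KO and 39507 to 59205 in WT, and albumin took 9.57% ± 1.63 of all FPKM in Liver-RE, 4.82% ± 0.920 in KO and 10.2% ± 1.20 in WT (SD, 18 livers each). Albumin made up most of the hepatocyte sum. Its means were 33046 FPKM in Liver-RE, 16700 in KO and 36852 in WT, beside median sums of 43621, 28208 and 47000. Endothelial markers (8) summed to 98.1 to 167 FPKM in Liver-RE, 111 to 225 in KO and 125 to 174 in WT, and stellate markers (8) to 109.8 to 210.3 FPKM in Liver-RE, 130.3 to 199.5 in KO and 138 to 216 in WT. In each of these lists, at most 1 marker was called higher and at most 1 lower in each comparison. Cholangiocyte markers (6) summed to 8.79 to 21.8 FPKM in Liver-RE, 14.7 to 76.2 in KO and 12.1 to 40.1 in WT, and both of those tested were higher in KO than in WT and lower in Liver-RE than in KO. Adipocyte markers (4 in the table) summed to 11.4 to 20.2 FPKM in Liver-RE, 9.74 to 19.9 in KO and 9.07 to 16.6 in WT; of 2 tested, 1 was higher and 1 lower in KO than in WT and 1 was higher in Liver-RE than in KO. Erythroid markers (2 in the table) summed to 8.56 to 27.8 FPKM in Liver-RE, 7.14 to 22.6 in KO and 3.17 to 15.0 in WT, and the 1 tested was higher in KO and in Liver-RE than in WT. Of the cholangiocyte, adipocyte and erythroid markers, only 2, 2 and 1 averaged at least 0.5 FPKM over all libraries, so each of these sums rests on few genes. No marker was at 0 in every library, and the part of any of these in the results was not tested.

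The second comparison takes each harvest time by itself, 3 livers against 3. Of 30 pairs of gene and time, 8 were called between KO and WT, 9 between Liver-RE and KO, and 1 between Liver-RE and WT. Fads2 was lower in KO than in WT at 4 times. At ZT12, when WT was highest, it had 94.8, 123 and 117 FPKM in KO livers, against 378, 243 and 279 FPKM in WT livers. The difference there was -1.40 ± 0.207 (limma adjusted p = 3.74e-06), the largest among these 30 pairs. At ZT20, when WT was lowest, Fads2 had 125, 118 and 116 FPKM in KO livers and 117, 175 and 149 FPKM in WT livers, groups that overlapped, with a difference of -0.28 (limma adjusted p = 0.466). The calls at ZT0 (-0.93, limma adjusted p = 0.00602), ZT8 (-1.11, limma adjusted p = 0.000509) and ZT16 (-0.92, limma adjusted p = 0.00251) lay between these, and ZT4 was not called (-0.53, limma adjusted p = 0.222). Without WT ZT0 replicate 1 the difference at ZT0 was -0.75, with limma adjusted p = 0.0509.

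Fads1 was called lower in KO than in WT at ZT0 (-0.77, limma adjusted p = 0.00416), ZT8 (-0.80, limma adjusted p = 0.00151) and ZT12 (-0.75, limma adjusted p = 0.00111). At ZT8 it had 87.9, 83.0 and 78.7 FPKM in KO livers, against 143, 147 and 147 FPKM in WT livers. KO livers lay below all WT livers at 5 of the 6 times, ZT20 being the one with overlap. After quantile normalization the differences at ZT0 (-0.67, limma adjusted p = 0.0625) and ZT8 (-0.65, limma adjusted p = 0.0636) no longer passed. The share of all genes called lower in KO was 1.73% at ZT0, 0.901% at ZT4, 3.37% at ZT8, 8.27% at ZT12, 3.07% at ZT16 and 1.90% at ZT20. These shares rest on single libraries. Genes called in either direction between KO and WT were 353 at ZT0 with all libraries, but 981 without KO ZT0 replicate 1 and 146 without WT ZT0 replicate 3. They were 296 at ZT4 (154 without WT ZT4 replicate 1), 615 at ZT8 (309 without WT ZT8 replicate 1), 1921 at ZT12 (1161 without WT ZT12 replicate 3), 1094 at ZT16 (665 without KO ZT16 replicate 1) and 773 at ZT20 (298 without WT ZT20 replicate 1), each the lowest of the 6 counts with 1 library left out.

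Elovl5 took opposite signs over the day. At ZT0 it had 197, 200.5 and 220.3 FPKM in KO livers, against 307, 353 and 309 FPKM in WT livers, and the KO livers were all lower; the difference of -0.64 did not pass (limma adjusted p = 0.0661). At ZT16 it had 188, 235 and 196 FPKM in KO livers, against 119, 137 and 104 FPKM in WT livers. All KO livers were above all WT livers there, with 0.78 ± 0.199 and limma adjusted p = 0.00830, where 6.23% of all genes were called higher. This call was lost without KO ZT16 replicate 2 (0.68, limma adjusted p = 0.0617) and without WT ZT16 replicate 3 (0.68, limma adjusted p = 0.0571). At ZT20 the difference was 0.58 (limma adjusted p = 0.0694), and 0.91 (limma adjusted p = 0.00191) without WT ZT20 replicate 2, the liver at 231 FPKM beside 111 and 121. Elovl2 and Elovl1 were called at none of the 6 times; their largest differences between KO and WT were -0.35 for Elovl2 at ZT16 and -0.61 for Elovl1 at ZT0, and Elovl1 at ZT0 was -0.88 (limma adjusted p = 0.0181) without WT ZT0 replicate 1.

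Between Liver-RE and KO, Fads2 was called higher at 5 times and Fads1 at 3. At ZT0 Fads2 had 269.6, 248 and 211 FPKM in Liver-RE livers, against 113, 94.5 and 86.8 FPKM in KO livers, a difference of 1.301 ± 0.207 (limma adjusted p = 7.87e-05). It was 1.296 at ZT8 (limma adjusted p = 2.98e-05) and 1.19 at ZT12 (limma adjusted p = 0.000147), and all Liver-RE livers lay above all KO livers at each of the 6 times. The smallest was 0.47 at ZT16 (limma adjusted p = 0.126), with 166, 208 and 179 FPKM in Liver-RE livers and 132, 134 and 130.2 FPKM in KO livers. The ZT16 difference passed after quantile normalization (0.77, limma adjusted p = 0.0448) and after rescaling (0.73, limma adjusted p = 0.0485). The calls at ZT4 (0.87, limma adjusted p = 0.00945) and ZT20 (0.74, limma adjusted p = 0.0413) each rested on single libraries. The ZT20 call was also lost after quantile normalization (0.80, limma adjusted p = 0.0502), without the filter (limma adjusted p = 0.0531) and with only the genotypes concerned (limma adjusted p = 0.0571). ZT4 was not called without Liver-RE ZT4 replicate 2 (0.74, limma adjusted p = 0.0980) or KO ZT4 replicate 1 (0.80, limma adjusted p = 0.0758). ZT20 was lost without any 1 of KO replicates 1, 2 and 3 (0.71 to 0.77), Liver-RE replicate 2 (0.56) or Liver-RE replicate 1, the out-of-phase liver (0.76, limma adjusted p = 0.103).

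Fads1 was higher in Liver-RE than in KO at ZT0 (0.90, limma adjusted p = 0.000480), ZT8 (0.63, limma adjusted p = 0.0109) and ZT12 (0.69, limma adjusted p = 0.00616). At ZT12 1 liver decided much of it: Fads1 had 190.3, 101 and 120.4 FPKM in Liver-RE livers, against 69.3, 89.1 and 88.5 FPKM in KO livers. Without the highest of these, Liver-RE ZT12 replicate 1, the difference was 0.43 (limma adjusted p = 0.118), and without KO ZT12 replicate 1 it was 0.57 (limma adjusted p = 0.0590). The same Liver-RE liver also had the highest Fads2 value of the series, 398 FPKM, and the Fads2 difference at ZT12 was 0.86 without it and still called. The ZT8 call of Fads1 was lost without Liver-RE ZT8 replicate 2 (0.50) or KO ZT8 replicate 3 (0.60) and under both other scalings (0.63 and 0.62). Fads1 at ZT16 was not called (0.45, limma adjusted p = 0.0729), but was after quantile normalization (0.77), after rescaling (0.71) and without Liver-RE ZT16 replicate 1 (0.55). The share of all genes called higher in Liver-RE was 1.75% at ZT0, 0.935% at ZT4, 2.59% at ZT8, 1.88% at ZT12, 1.26% at ZT16 and 0.740% at ZT20. Here too, 1 library left out moved the genes called in either direction by over 1.5 times at 5 of the times. They were 482 at ZT0 with all libraries (186 without Liver-RE ZT0 replicate 1, 1186 without KO ZT0 replicate 1) and 1030 at ZT16 (1879 when Liver-RE ZT16 replicate 1 was dropped and 263 when replicate 3 of that group was). The lowest counts were 190 at ZT4 (without Liver-RE ZT4 replicate 3, against 301), 355 at ZT12 (without Liver-RE ZT12 replicate 3, against 683) and 130 at ZT20 (without KO ZT20 replicate 3, against 328).

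Elovl5 was called higher in Liver-RE than in KO at ZT0, with 460.4, 398 and 272 FPKM in Liver-RE livers against 197, 200.5 and 220.3 FPKM in KO livers. The groups did not overlap, the difference was 0.84 ± 0.199 and limma adjusted p = 0.0101. At ZT20 it was 0.22 and not called (limma adjusted p = 0.575). It was not called without Liver-RE ZT0 replicate 1 (0.67, limma adjusted p = 0.120) or replicate 2 (0.78, limma adjusted p = 0.0575). Against WT, Elovl5 at ZT20 was the 1 pair called, 0.81 ± 0.199 (limma adjusted p = 0.0422), where 0.323% of all genes were called higher (75 genes called in either direction, or 5 to 201 with 1 library left out, the lowest without Liver-RE ZT20 replicate 2 or WT ZT20 replicate 3 and the highest without WT ZT20 replicate 1). The values there were 314, 266 and 201 FPKM in Liver-RE livers, against 111, 231 and 121 FPKM in WT livers, and the groups overlapped. The liver at 314 FPKM is the out-of-phase one, and without it the difference was 0.66 (limma adjusted p = 0.142). The call was also lost without Liver-RE ZT20 replicate 2 (0.78), WT ZT20 replicate 1 (0.61) or WT ZT20 replicate 3 (0.68), and after quantile normalization (0.73). At ZT16 Elovl5 was 0.64 higher than in WT without passing (limma adjusted p = 0.0731), and passed after quantile normalization (0.81, limma adjusted p = 0.0322) and after rescaling (0.82, limma adjusted p = 0.0262).

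**Figure D3:**
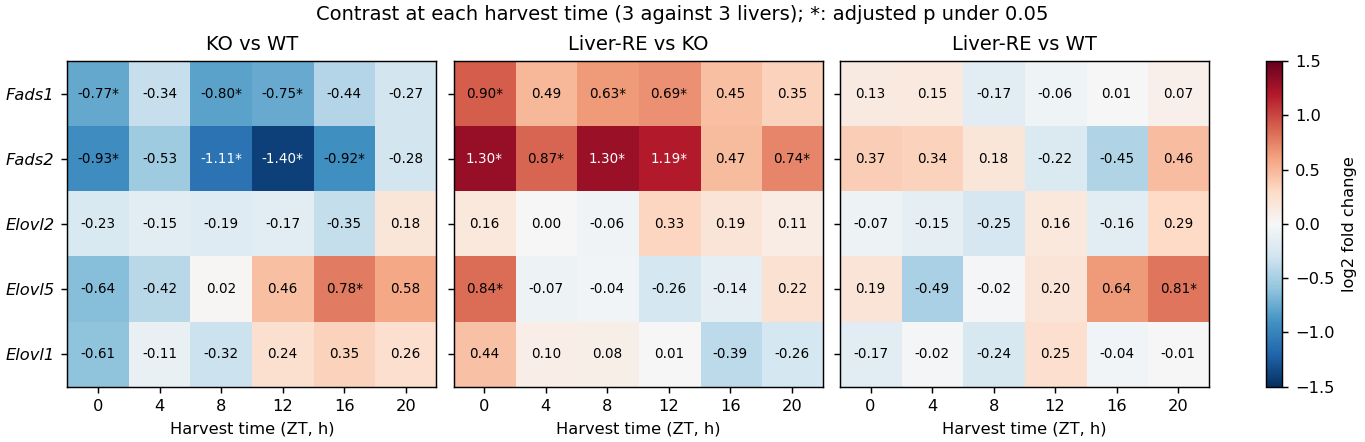
Difference in log2(FPKM + 1) at each harvest time (columns, 3 livers against 3) for each gene (rows) in the 3 comparisons; a star marks a limma adjusted p under 0.05. Fads2 runs from -1.40 at ZT12 to -0.28 at ZT20 for KO vs WT, and Elovl5 from -0.64 at ZT0 to 0.78 at ZT16.

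The third comparison asks which of these transcripts had a 24 h rhythm. Elovl5 was called rhythmic in Liver-RE livers, none of the 5 in KO livers, and Elovl5 and Fads2 in WT livers, with peaks at different times of day. A missed call does not show that a rhythm is absent. In Liver-RE livers Elovl5 was high around lights on. It averaged 377 ± 95.8 FPKM at ZT0 and 260.3 ± 57.0 at ZT20, and between 187 and 208 FPKM at the other 4 times (3 livers each). Peak over trough was 1.805, with the peak at ZT23.19 ± 0.838 h, with limma adjusted p = 0.0120. The rhythm test of Liver-RE was not passed without Liver-RE ZT0 replicate 1 (limma adjusted p = 0.0698) or replicate 2 (limma adjusted p = 0.0517), nor when only the Liver-RE libraries were fitted (limma adjusted p = 0.0650).

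In KO livers the Elovl5 means lay between 190.4 FPKM at ZT8 and 231 FPKM at ZT12, the fold was 1.05 and limma adjusted p = 0.986. Elovl5 in WT livers averaged 323 ± 26.2 FPKM at ZT0, 296 ± 57.2 at ZT4, 188 ± 12.4 at ZT8, 169 ± 34.4 at ZT12, 120.1 ± 16.9 at ZT16 and 154 ± 66.7 at ZT20 (SD, 3 livers each). The fitted WT curve had a peak 2.52 times its trough, and peaked at ZT3.02 ± 0.535 h (SE), with limma adjusted p = 3.68e-06. The fitted Liver-RE peak came 3.83 h earlier than that of WT (Liver-RE minus WT -3.83 ± 0.994 h, SE), and the log2 swing was smaller by 0.48 ± 0.264 in Liver-RE. The highest group mean of Elovl5 was at ZT0 in both of these genotypes. The shift in peak time was not tested by itself, and peak times were not refitted without the out-of-phase Liver-RE ZT20 liver. The coefficient of variation of Elovl5 over the 18 livers was 34.6% in Liver-RE, 10.9% in KO and 40.4% in WT.

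The tests of the difference in rhythm were passed by Elovl5 for KO against WT (limma adjusted p = 0.00206) and for Liver-RE against WT (limma adjusted p = 0.0219), but not for Liver-RE against KO (limma adjusted p = 0.242). The Liver-RE against WT result was 0.0680 in a fit of those 2 genotypes alone. Of all genes tested, 7.78% passed this test for KO against WT, 3.51% for Liver-RE against WT and 0.238% for Liver-RE against KO. Rhythm in one genotype was called for 3.82% of genes in Liver-RE, 0% in KO and 23.5% in WT, beside 1, 0 and 2 of these 5. For KO, limma gave 1105 genes with p under 0.05 before adjustment, none of them among the 5, and 0 to 6 genes after adjustment under the other settings. The 6 came from group means, with an F test of any difference between harvest times in place of the cosine.

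Fads2 had a peak-to-trough fold of 1.21 in Liver-RE (limma adjusted p = 0.585) and 1.22 in KO (limma adjusted p = 0.786), and was called rhythmic in neither. In WT livers it was highest at the change from light to dark. It averaged 191 ± 47.4 FPKM at ZT0, 173 ± 17.1 at ZT4, 205 ± 25.4 at ZT8, 300.0 ± 70.3 at ZT12, 251 ± 13.9 at ZT16 and 147 ± 29.1 at ZT20 (SD, 3 livers each). The WT fold was 1.72 and the peak ZT12.13 ± 0.920 h (limma adjusted p = 0.00645). The difference in rhythm did not pass for KO against WT (limma adjusted p = 0.131), Liver-RE against WT (limma adjusted p = 0.155) or Liver-RE against KO (limma adjusted p = 0.518), so a loss of the Fads2 rhythm is not shown. It passed for KO against WT without WT ZT0 replicate 1 (limma adjusted p = 0.0444) and for Liver-RE against WT without Liver-RE ZT12 replicate 1 (limma adjusted p = 0.0317).

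Fads1, beside Fads2 on the chromosome, was called rhythmic in no genotype, with folds of 1.20 in Liver-RE (limma adjusted p = 0.426), 1.26 in KO (limma adjusted p = 0.565) and 1.02 in WT (limma adjusted p = 0.991). Elovl2 had folds of 1.15 in Liver-RE, 1.09 in KO and 1.08 in WT, with limma adjusted p between 0.668 and 0.939. Elovl1 had folds of 1.19 in Liver-RE (limma adjusted p = 0.621), 1.37 in KO (limma adjusted p = 0.541) and 1.38 in WT (limma adjusted p = 0.121). Its WT rhythm passed after quantile normalization (limma adjusted p = 0.0381), after rescaling (limma adjusted p = 0.0340) and without WT ZT0 replicate 1 (limma adjusted p = 0.0351), which also took its difference between KO and WT past the threshold (limma adjusted p = 0.0409, against 0.0961 with all libraries).

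**Figure D4:**
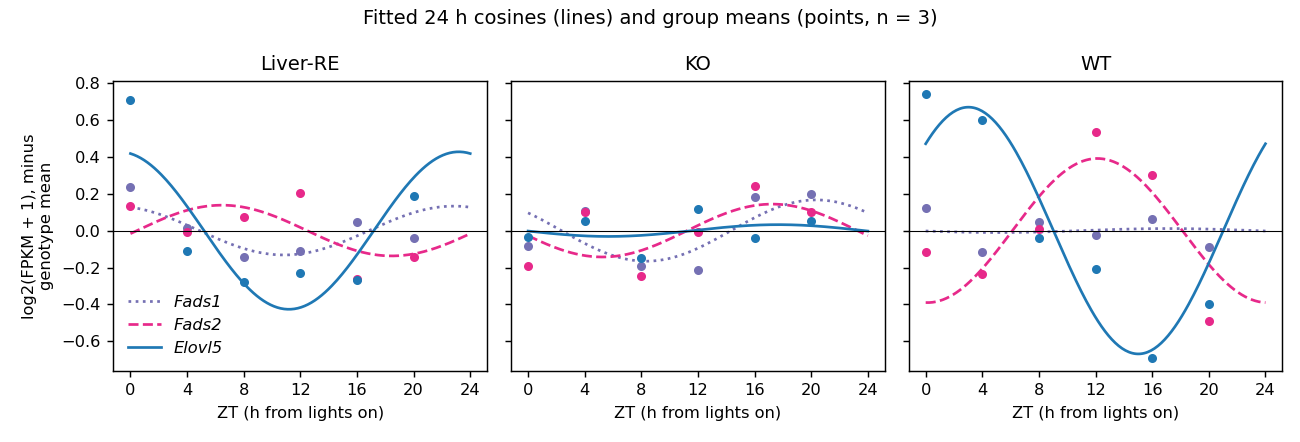
Fitted 24 h cosines (lines) and group means of log2(FPKM + 1) (points, 3 livers each) for Fads1, Fads2 and Elovl5, centred on the mean of each genotype. In Liver-RE Elovl5 crests at ZT23.19, in KO its line is nearly flat, and in WT it crests at ZT3.02 and Fads2 at ZT12.13.

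Across the livers of a genotype, the relation of the 2 desaturases passed the test in KO only. Within harvest times their r was positive in all 3 genotypes. The test shuffled livers over all harvest times, so it does not set time of day apart. Across the 18 KO livers, the log2 levels of Fads1 and Fads2 had Pearson r = 0.74 (permutation adjusted p = 0.00735) and Spearman rho = 0.74 (permutation adjusted p = 0.0186), adjusted over 30 relations (10 pairs of genes in 3 genotypes). Without the 2 livers farthest from the median of Fads1, r was 0.69, and after the harvest time means were removed it was 0.65. In Liver-RE the values were r = 0.58 and rho = 0.61 (permutation adjusted p = 0.113 and 0.0812), and in WT r = 0.45 and rho = 0.27 (permutation adjusted p = 0.221 and 0.409); within harvest times r was 0.80 in Liver-RE and 0.65 in WT. Fads2 and Elovl1 also varied together in KO, with r = 0.76 (permutation adjusted p = 0.00660) and rho = 0.71 (permutation adjusted p = 0.0195), 0.58 without the 2 farthest livers and 0.48 within harvest times. None of the other 28 relations passed. All members of a pair come from the same library and share its scaling.

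The genes with the most similar pattern were found over the 18 group means, among 10052 genes with a mean of at least 1 FPKM, as a description. For Fads1 these were Gas6 (a secreted ligand of receptor kinases, r = 0.93), Fmo4 (a flavin monooxygenase, 0.92) and As3mt (an arsenic methyltransferase, 0.92), and Fads2 stood 25th with r = 0.86. For Fads2 they were Samm50 (a mitochondrial outer membrane assembly protein, 0.95), Fam47e (0.94) and Dhrs7 (a short-chain dehydrogenase, 0.94). Elovl5 was most like Acsl5 (an acyl-CoA synthetase, 0.89), Tfpi2 (a protease inhibitor, 0.87) and Commd10 (0.83). For Elovl1 they were Ebp (a sterol isomerase of cholesterol synthesis, 0.88), Oasl1 (an interferon-induced gene, 0.87) and Svip (0.85), and for Elovl2 the likeness was weaker, with Dynll1 (a dynein light chain, 0.75), Fabp1 (liver fatty acid binding protein, 0.75) and Tcf20 (0.74). Acsl5, on the list of activation and phospholipid genes, had folds of 1.47 in Liver-RE (limma adjusted p = 0.132), 1.11 in KO (limma adjusted p = 0.926) and 1.73 in WT with a peak at ZT4.41 (limma adjusted p = 0.00471), and its rhythm differed between KO and WT (limma adjusted p = 0.0417). Because Acsl5 is named here for its likeness to Elovl5 in the same data, these results are not independent of those of Elovl5.

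Of the enzymes that complete each elongation cycle with the elongases, 6 were tested (Hsd17b12, Tecr and the Hacd family). Of these, 0 were called between KO and WT and 0 between Liver-RE and WT, and 1, Hacd2, was lower in Liver-RE than in KO (-0.19, limma adjusted p = 0.0390). The shares over all genes were 30.0% for KO against WT, 7.06% for Liver-RE against WT and 34.1% for Liver-RE against KO, and the counts of the other lists are read against them. The median difference of the list was -0.04 for KO minus WT, beside 0.02 over all genes tested, and 0.01 for Liver-RE minus KO, beside -0.07. Of 5 electron donors of the desaturases, Cyb5r1 (-0.31) and Cyb5r3 (-0.23), both cytochrome b5 reductase genes, were lower in KO than in WT. Cyb5r3 was higher in Liver-RE than in KO (0.37), and Cyb5r1 was lower in Liver-RE than in WT (-0.18).

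The other elongases and desaturases moved in both directions. Of 7 tested out of 10, 3 were higher and 2 lower in KO than in WT. Elovl3, an elongase of saturated and monounsaturated chains, had 0.0213, 18.7 and 80.6 FPKM (lowest, median, highest) in KO livers and 0.0573, 0.877 and 2.21 FPKM in WT livers, a difference of 3.36 ± 0.349 (limma adjusted p = 5.09e-11). Scd1, the main stearoyl-CoA desaturase of liver, had 517, 1263 and 2481 FPKM in KO livers and 1279, 2219.9 and 4080.1 FPKM in WT livers (-0.97 ± 0.194, limma adjusted p = 9.34e-05), and Scd2 was higher by 0.72 ± 0.182 (limma adjusted p = 0.00170). In Liver-RE against KO, 2 were higher and 3 lower, with Elovl3 at -2.98, Scd1 at 1.29 and Elovl6, which elongates palmitate, at 1.65, and 0 of 7 were called between Liver-RE and WT.

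Among the peroxisomal genes that shorten the last intermediate to docosahexaenoic acid, 8 were tested. Of these, 4 were lower and 1 higher in KO than in WT, and 5 were higher and 1 lower in Liver-RE than in KO. The thiolases Acaa1a (-0.32 in KO against WT, 0.51 in Liver-RE against KO) and Acaa1b (0.98 in Liver-RE against KO, 0.51 in Liver-RE against WT) were among them. Scp2, the sterol carrier and thiolase gene, was the exception, at 1.27 in KO against WT and -0.97 in Liver-RE against KO. The median of the list was -0.25 for KO minus WT and 0.34 for Liver-RE minus KO.

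Of the genes that activate these fatty acids and place them in phospholipids, 14 were tested, and 4 were higher and 5 lower in KO than in WT, with a median of -0.02. Over all genes, 16.5% were higher and 13.5% lower. Mfsd2a, a transporter of lysophospholipids that carry docosahexaenoic acid, was lower (-1.35 ± 0.256, limma adjusted p = 4.05e-05), and the phospholipase gene Pla2g12b (0.47) and the acyltransferase gene Agpat3 (0.33) were higher. In Liver-RE against KO, 4 were higher and 3 lower, among them Mfsd2a (1.26), Pla2g6 (0.54) and Pla2g12b (-0.50), and 1 of 14, Pla2g6, was called between Liver-RE and WT (0.28).

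Among the 13 regulators, the level of Srebf1, which encodes SREBP1, was not called in any comparison. It had 22.3, 61.4 and 121 FPKM in Liver-RE livers, 19.2, 43.7 and 100.6 FPKM in KO livers, and 15.9, 58.6 and 98.4 FPKM in WT livers, with -0.29 ± 0.192 for KO minus WT (limma adjusted p = 0.262) and 0.32 ± 0.192 for Liver-RE minus KO (limma adjusted p = 0.192). Ppara, which encodes PPAR-alpha, had 23.8, 43.6 and 59.8 FPKM in Liver-RE livers, 17.96, 26.5 and 44.2 FPKM in KO livers, and 24.1, 36.9 and 59.6 FPKM in WT livers. It was lower in KO than in WT (-0.46 ± 0.103, limma adjusted p = 0.000484) and higher in Liver-RE than in KO (0.64 ± 0.103, limma adjusted p = 2.96e-06). Nr1h3, which encodes LXR-alpha, was at -0.08 for KO minus WT (limma adjusted p = 0.299) and -0.06 for Liver-RE minus KO (limma adjusted p = 0.468). Insig2, which retains SREBP in the endoplasmic reticulum, was higher in KO than in WT (1.07 ± 0.167, limma adjusted p = 1.23e-06) and lower in Liver-RE than in KO (-1.01). In all, 2 regulators were higher and 1 lower in KO than in WT, 2 higher and 2 lower in Liver-RE than in KO, and 0 were called between Liver-RE and WT. These 3 and 4 of 13 lie close to the shares over all genes, 30.0% and 34.1%.

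**Figure D5:**
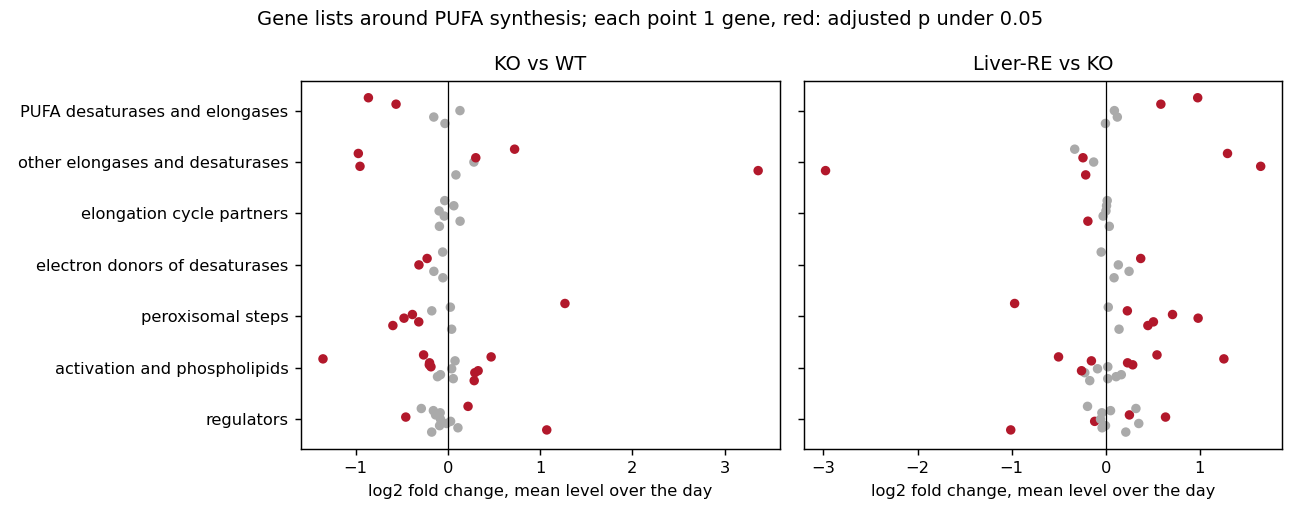
Difference in mean log2(FPKM + 1) over the day for each tested gene of the 7 lists (1 point per gene, 18 livers per genotype), in KO vs WT and in Liver-RE vs KO; red marks a limma adjusted p under 0.05. Points on the far right for KO vs WT and on the far left for Liver-RE vs KO are Elovl3, at 3.36 and -2.98.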

How the data were processed

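Liver RNA-seq covered 54 mice. Per the labels' protocols, ribosomal RNA was depleted from total RNA and stranded libraries were read single end. CASAVA 1.8.2 and mm10 appear, with no role, in the submitters' processing notes; the sources used here give neither aligner nor counting. The table the authors deposited names no unit, and its values were taken as FPKM made by the authors. It held 0 columns that belong to no sample, and whole reads were not recovered.

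Analysis used log2(FPKM + 1), which understates changes of low genes, and kept 11759 genes averaging at least 0.5 FPKM (6320 fell below). In limma 3.58.1 under R 4.3.3 (empirical Bayes, trended), all 54 libraries were fitted together, each genotype having its own level, cosine and sine terms of 24 h. Rhythm and rhythm differences were F tests; single times came from a model of 18 group means. P-values were adjusted by Benjamini-Hochberg over all genes (threshold 0.05). Correlations had permutation tests (scipy 1.17.1). The code was tested on simulated data.

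The members, lists and tests were chosen with earlier results of these data known. Named genes are the 5 members, up to 3 genes per list with the smallest p per comparison, the 3 most similar genes per member, Srebf1, Ppara, Nr1h3 and Arntl; a few are left out for length, and 1 is not reported here. Other settings tried were a replicate block; 0.1 as pseudocount; no filter on low values; quantile normalization; rescaling without the 20 highest genes; group means; robust empirical Bayes; only the genotypes concerned; and each library left out. Leaving out both out-of-phase libraries was chosen after seeing the data. Promoter windows are RefSeq's (GRCm38.p6).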

Additional observations from a re-analysis of the deposited data

Results flagged for a closer look

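For Elovl5, the elongase between the desaturase steps, the KO minus WT difference itself depended on harvest time (limma adjusted p = 0.00206 in the test of the difference in rhythm). It was -0.64 at ZT0 (limma adjusted p = 0.0661) and 0.78 at ZT16 (limma adjusted p = 0.00830) on the log2 scale. The ZT16 call was lost without KO ZT16 replicate 2 or WT ZT16 replicate 3.

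The Liver-RE minus WT difference of Elovl5 also depended on harvest time (limma adjusted p = 0.0219 in the same test). It was -0.49 at ZT4 (limma adjusted p = 0.630) and 0.81 at ZT20 (limma adjusted p = 0.0422). In a fit of those 2 genotypes alone, the test of the difference in rhythm did not pass (limma adjusted p = 0.0680). Without the out-of-phase Liver-RE library, the ZT20 difference was 0.66 (limma adjusted p = 0.142).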

How the results depend on the processing

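The KO minus WT and Liver-RE minus KO levels of Fads1 and Fads2 kept direction and call under every setting run. The WT rhythms of Elovl5 and Fads2 and the Elovl5 rhythm difference of KO against WT kept their call. The size of a rhythm has no sign, and peak times were not compared between settings. Liver-RE minus KO for Elovl2 became 0.20 (quantile normalization) and 0.20 (rescaled), both past the threshold, as did the log2 swing of Elovl1 in WT (0.56 and 0.56). With only the genotypes concerned, the Elovl5 log2 swing in Liver-RE (0.85) and its difference from WT (1.13) no longer passed. Called pairs of gene and time for Liver-RE against WT were 2 after rescaling, 0 with only the genotypes concerned and 0 without both out-of-phase libraries. With each library left out in turn, values ran from 0.64 to 0.93 for the Fads2 rhythm difference (log2) of KO against WT, 0.68 to 1.01 for that of Liver-RE against WT, 0.71 to 0.91 for Elovl1 of KO against WT, 0.32 to 0.61 for the Elovl1 swing in WT, 0.69 to 0.94 for the Elovl5 swing in Liver-RE, and 0 to 1 for those pairs. The cause was not tested.

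With the replicate block, Fads2 was at -0.86 for KO minus WT, 3639 genes were called against 3532 without it, and no level or rhythm call of the 5 genes changed. Correlations of deviations from the group means ran from -0.402 to 0.510 (median 0.031) for same-numbered and from -0.496 to 0.461 (median -0.021) for differently numbered libraries. Of the 54 libraries, 29 were closest to their own number, more than the 18 that 3 numbers would give evenly, which is a hint of pairing from the data. The labels name nothing that a number shares and not every correlation was over 0.1, so the samples were treated as sharing only a number.

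Counts of genes called moved by over 1.5 times for the level of Liver-RE against WT (830, or 513 after quantile normalization and 479 rescaled), the rhythm difference of KO against WT (915, or 538 with group means) and of Liver-RE against KO (28, or 4 with group means, 7 unfiltered, 49 with only the genotypes concerned, 52 rescaled, 59 after quantile normalization and 60 without the out-of-phase libraries), and rhythm in Liver-RE (449, or 729 after quantile normalization and 191 with only the genotypes concerned). At single times they moved for Liver-RE against KO at ZT16 (1030, or 564 after quantile normalization, 608 rescaled and 581 with only the genotypes concerned) and ZT20 (328, or 168 without the out-of-phase libraries), and for Liver-RE against WT at ZT0 (48, or 23 to 86), ZT8 (8, or 2 to 16), ZT12 (449, or 228) and ZT20 (75, or 145). With 1 library left out, single-time counts moved as given beside them, the rhythm difference of KO against WT fell to 568 (without WT ZT12 replicate 3), that of Liver-RE against WT to 260 of 413 (without WT ZT4 replicate 3) and rhythm in Liver-RE to 249 (without Liver-RE ZT16 replicate 2), and the rhythm difference of Liver-RE against KO was 65 when Liver-RE ZT16 replicate 1 was dropped and, at its lowest, 7 when KO ZT8 replicate 3 was. Single-time counts of Liver-RE against WT moved in the same way. They were 10 to 76 at ZT0 (against 48), 0 to 25 at ZT8 (against 8) and 26 to 751 at ZT16 (against 247). Their lowest was 8 at ZT4 (against 26) and 64 at ZT12 (against 449).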
